A study of Mus musculus with 9 samples.

Results

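The 10 genes described here, Pecam1, Cdh5, Emcn, Kdr, Flt1, Tek, Tie1, Sox7, Sox17 and Sox18, are markers of endothelial cells, the cells that line blood vessels. They were chosen by name from the 43472 genes of the deposited raw count table, and all 10 were among the 14257 genes with enough reads to be tested. The 9 RNA libraries came from C57BL/6J mice, with no treatment or allele named in the labels: 3 of bone (Bone, labelled osteoblasts), 3 of mature cartilage (MatC, labelled mature chondrocytes) and 3 of immature cartilage (ImC, labelled immature chondrocytes). No age, sex or skeletal site of the mice was given in the sources used here. Nothing in the labels says whether the replicates of a group came from separate mice, so p-values measure only the spread between these libraries, which may be technical. The labels name the chondrocyte or osteoblast of each tissue and no vessel cell.

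Immature cartilage is known as a tissue without blood vessels. During endochondral bone formation, hypertrophic cartilage is invaded by vessels, which bring the cells that resorb cartilage and lay down bone. Endothelial cells are held together by adhesion proteins such as PECAM1 and VE-cadherin, respond to vascular endothelial growth factor (VEGF) and angiopoietins through receptor tyrosine kinases, and are specified in part by the SOXF transcription factors.

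Together the 10 genes held many reads in every Bone library and in 2 of 3 MatC libraries, and few in MatC replicate 3 and in the ImC libraries. Their summed level, in counts per 1e6 reads after scaling by trimmed mean of M values (CPM), was 51.2, 139.0 and 156.7 CPM in Bone replicates 1, 2 and 3, 108.1, 249.6 and 12.4 CPM in MatC replicates 1, 2 and 3, and 2.33, 2.08 and 10.97 CPM in ImC replicates 1, 2 and 3. The reads behind those sums numbered 945, 1624 and 2783 in Bone, 1426, 3541 and 44 in MatC, and 28, 42 and 154 in ImC. MatC replicate 2 was above every Bone library, MatC replicate 1 lay within the Bone range, and MatC replicate 3 lay just above the highest ImC library. The exact 95% Poisson interval of MatC replicate 3, 9.04 to 16.7 CPM, overlapped that of ImC replicate 3, 9.30 to 12.8 CPM, where intervals here and below cover counting error only. The group means were 116 ± 56.5 CPM in Bone, 123 ± 119 CPM in MatC and 5.13 ± 5.06 CPM in ImC (SD, n = 3 each). In bulk RNA, fewer endothelial cells and less RNA per endothelial cell cannot be told apart.

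**Figure D1:**
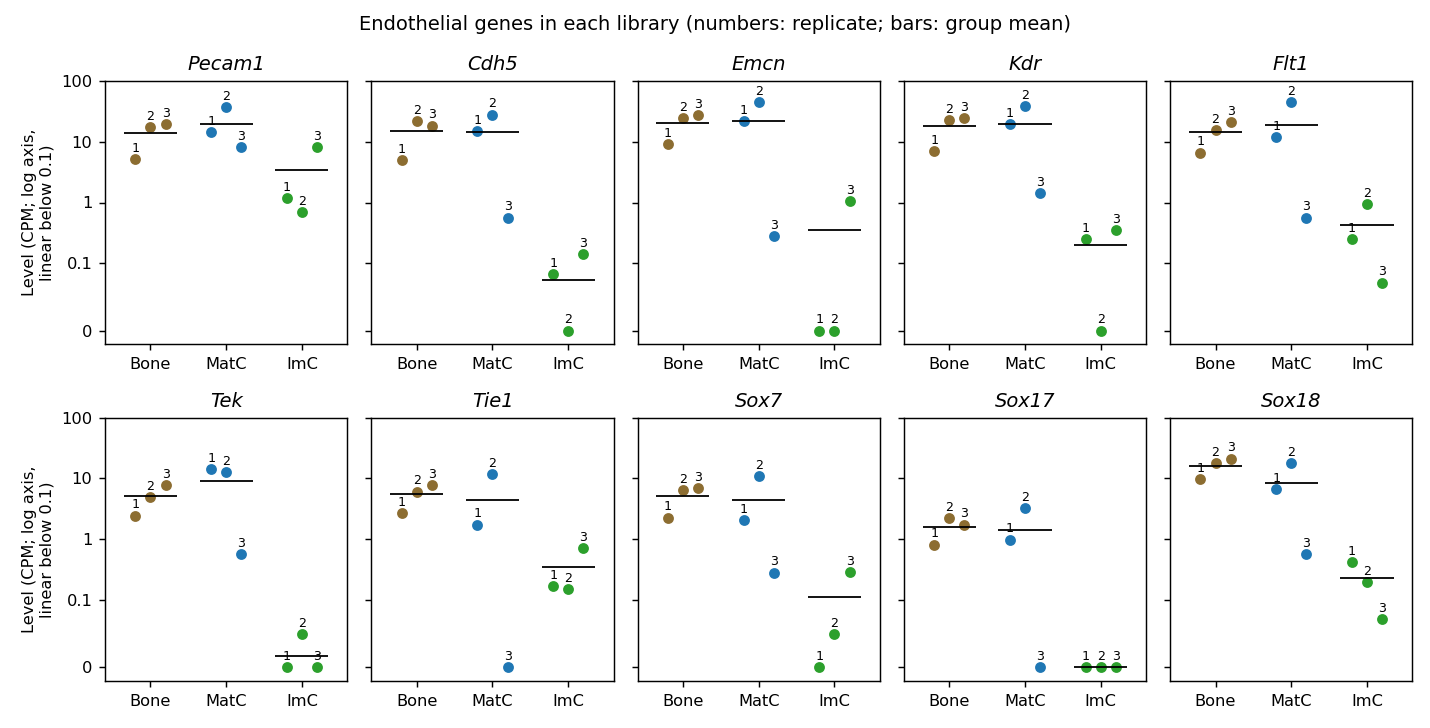
Level of each of the 10 endothelial genes in each library, in CPM on a log axis that is linear below 0.1, with Bone, MatC and ImC side by side, the replicate number as the point and a bar at the group mean of 3 libraries. MatC replicate 3 is the lowest MatC point in every panel, and the ImC libraries lie at or below 1.07 CPM except for Pecam1, at 8.26 CPM in ImC replicate 3.

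Depth differed between the libraries in a way that touches these values. Total reads ran from 7913684 to 23159547, and mitochondrially encoded genes took 8.01% ± 0.840 of the reads in Bone, 61.7% ± 25.1 in MatC and 44.1% ± 11.6 in ImC (SD, n = 3 each). MatC replicate 3 had the highest share, 82.3%, and 1904092 other reads, so that 3 reads there were worth 0.849 CPM, against 0.149 to 0.257 CPM in the other 8 libraries. The tissue labels were checked on cartilage and bone genes. Col10a1, a collagen of hypertrophic cartilage, was at 817, 933 and 4760 CPM in MatC replicates 1, 2 and 3, against at most 0.750 CPM in ImC. Ibsp, a bone matrix gene, was at 1914, 5943 and 185 CPM in the same MatC libraries, against 6.70 to 16.3 CPM in ImC, so MatC replicate 3 was the highest MatC library for Col10a1 and the lowest for Ibsp.

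The promoters of Emcn and Tek, 250 bases up to the RefSeq transcription start, are printed because both hold letters of the ETS and SOX families, whose factors are known to act in endothelial cells. RefSeq (GRCm38.p6) promoters were at hand for 5 of the 10 genes, namely Emcn, Tek, Tie1, Kdr and Flt1. Capitals mark CAGGAA, an ETS core, here read on the minus strand.
Emcn, chr3:137340828-137341077, plus strand: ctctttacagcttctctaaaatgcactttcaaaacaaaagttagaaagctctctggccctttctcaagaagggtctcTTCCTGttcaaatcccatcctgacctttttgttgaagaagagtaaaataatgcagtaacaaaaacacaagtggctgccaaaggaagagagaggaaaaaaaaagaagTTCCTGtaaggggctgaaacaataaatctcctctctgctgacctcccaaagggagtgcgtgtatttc
Tek, chr4:94739039-94739288, plus strand: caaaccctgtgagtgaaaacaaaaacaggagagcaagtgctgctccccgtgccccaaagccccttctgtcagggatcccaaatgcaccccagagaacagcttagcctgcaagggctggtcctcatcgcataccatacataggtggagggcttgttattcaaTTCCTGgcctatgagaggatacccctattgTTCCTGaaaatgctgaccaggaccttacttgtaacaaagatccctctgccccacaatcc
In Emcn the ETS letters begin 173 and 67 bases before the start, and AACAAT, a SOX core, lies 50 bases before it. In Tek the ETS letters begin 89 and 59 bases before the start, and AACAAT on the minus strand, at 63 bases, overlaps the second of them. Searched on both strands, CAGGAA was in 3 of the 5 promoters (Emcn, Tek and Tie1), against 24.6% of 18149 promoters of the same length, and CCGGAA, a second ETS core, was in 1 (Kdr), against 14.8%. AACAAT was in 2 of 5 (Emcn and Tek), against 8.69%, while AGATAA of the GATA family (8.84%) and TGTTTAC of the forkhead family (2.66%) were in none. These matches describe letters in a window and are not sites.

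MatC against ImC asks what differs between mature and immature cartilage. With Bone left out of the fit, 3 of the 10 genes had enough reads to be tested. The others were tested here only because the Bone libraries, where they were higher than in ImC, were in the fit. The counts below carry that condition. Of the 10 genes, 8 were higher in MatC at an adjusted p under 0.05 (edgeR's quasi-likelihood test, Benjamini-Hochberg over all tested genes), where 5.41% of all tested genes were called higher. None was lower, against 2.29% of all tested genes, and Pecam1 and Tie1 were the 2 that did not pass. The median log2 fold change of the 10 genes was 5.70, or 5.34 with Sox17, which had no read in ImC, at its lower bound, beside a median of 0.03 over all tested genes. In 4 of 10 (Cdh5, Tek, Kdr and Sox18), every MatC library was above every ImC library, as in 11.4% of all tested genes. That separation rests on 2 reads of MatC replicate 3 for Cdh5, Tek and Sox18 and on 5 for Kdr. The count of 8 depended on the processing and on single libraries. With libraries scaled by their size alone it was 3, where 1.34% of all tested genes were called higher. That share is given in parentheses for the other settings. It was 0 with only MatC and ImC in the fit (1.19%), where 3 of the 10 genes were tested. With the replicate number as a block it was 5 (3.75%). It was 1 (Tek) without ImC replicate 1 (1.80%), 7 without ImC replicate 3 (4.87%) and 9 without MatC replicate 3 (6.34%). It was 4 without ImC replicate 2 (3.11%), MatC replicate 1 (3.41%), MatC replicate 2 (2.91%) or any 1 Bone library (2.72% to 2.89%). With both MatC replicate 3 and ImC replicate 3 left out, a setting added after seeing the data, all 10 were called. The log2 fold change of each of the 10 genes was above 0 in every alternative in which it was fitted.

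Among the adhesion and surface genes, Cdh5 encodes VE-cadherin, the cadherin of endothelial junctions (chromosome 8, 104101625 to 104144511, plus strand, GRCm38). It was at 5.03, 21.6 and 18.5 CPM in Bone, 14.8, 28.1 and 0.566 CPM in MatC, and 0.0833, 0 and 0.142 CPM in ImC, for replicates 1, 2 and 3 in each group. All 3 Bone libraries and 2 MatC libraries were high, MatC replicate 3 held 2 reads, and the 3 ImC libraries held 3 reads together. The log2 fold change was 7.60 ± 1.39 (SE) in MatC against ImC (edgeR adjusted p = 0.0136). This call was lost without ImC replicate 1 (adjusted p = 0.0536). The ratio of pooled reads, scaled for library size, was 296, with a counting interval of 101 to 1441.

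Emcn encodes endomucin, a sialomucin of capillary and venous endothelium that also marks a class of bone vessels (chromosome 3, 137341067 to 137432185, plus strand). Emcn was at 9.26, 24.7 and 27.1 CPM in Bone, 21.7, 44.8 and 0.283 CPM in MatC, and 0, 0 and 1.07 CPM in ImC. MatC replicate 3 held 1 read and ImC replicate 3 held 15, so MatC and ImC overlapped. Emcn was called in MatC against ImC, with a log2 fold change of 6.01 ± 1.53 (SE; edgeR adjusted p = 0.0414). The call was lost without any 1 of 7 libraries, all but MatC replicate 3 and ImC replicate 3, with adjusted p-values up to 0.117.

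Pecam1 encodes the adhesion protein CD31, which platelets and several leukocytes also carry (chromosome 11, 106654217 to 106750628, minus strand). Pecam1 was at 5.20, 17.2 and 19.8 CPM in Bone, 14.5, 37.1 and 8.20 CPM in MatC, and 1.17, 0.695 and 8.26 CPM in ImC. MatC replicate 3, with 29 reads, and ImC replicate 3, with 116 reads, were alike, and the groups overlapped. The log2 fold change in MatC against ImC, 2.58 ± 0.93 (SE), was the smallest of the 10 and did not pass (edgeR adjusted p = 0.123). It passed without ImC replicate 3, by DESeq2 and with no filter.

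Pecam1 made up most of the few endothelial reads in MatC replicate 3 and ImC replicate 3. Its share of the reads of the 10 genes was 10.2%, 12.4% and 12.6% in Bone, 13.4%, 14.9% and 65.9% in MatC, and 50.0%, 33.3% and 75.3% in ImC. The Wilson 95% intervals were 51.1% to 78.1% in MatC replicate 3 and 68.0% to 81.5% in ImC replicate 3. Pairs of genes set against each other here and below were chosen after their values were seen. There were 14.5 reads of Pecam1 per read of Cdh5 in MatC replicate 3 (exact 95% interval 3.67 to 125) and 58.0 in ImC replicate 3 (15.7 to 485), against 0.979 and 1.32 in MatC replicates 1 and 2 and 0.798 to 1.07 in Bone. Other genes were high in ImC replicate 3 too, and these were also chosen after their values were seen. Itga2b, a platelet and megakaryocyte integrin, had 151 reads there, against 17 and 13 in ImC replicates 1 and 2. Esam, an adhesion molecule of endothelium and platelets, had 97 there, against 0 and 2. Hbb-bs, a globin, had 5307 there, against 17 and 99, while the platelet genes Pf4 and Ppbp had 0. The part of blood cells or platelets in the Pecam1 reads was not tested.

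**Figure D2:**
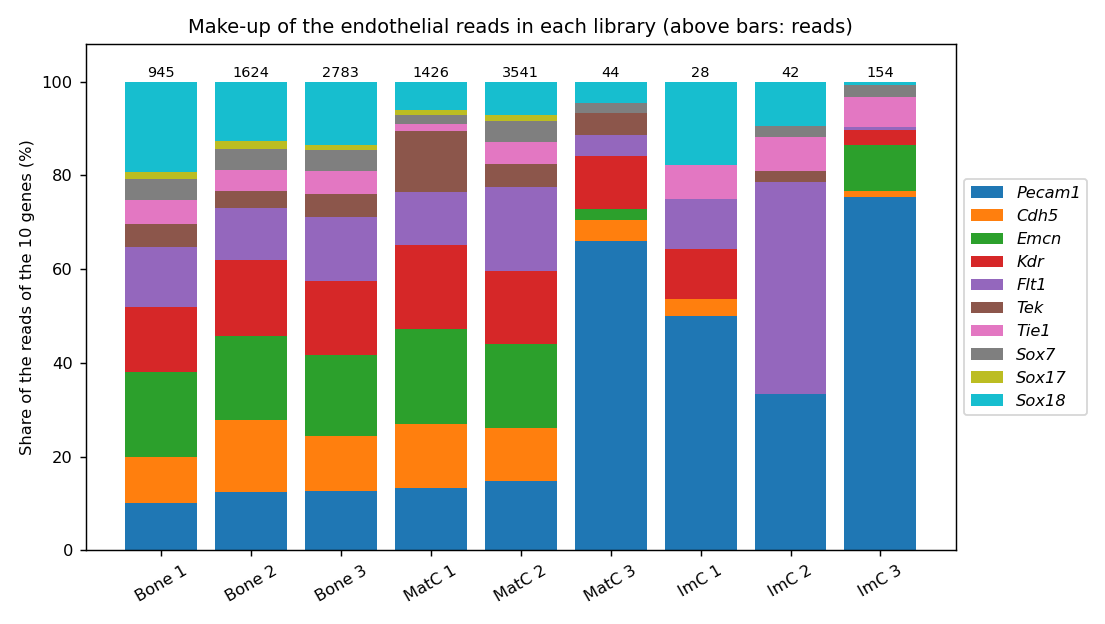
Share of each of the 10 endothelial genes in their summed reads, in percent, for each library, with the reads behind each bar above it. The 3 Bone bars and MatC replicates 1 and 2 hold all 10 genes, while Pecam1 takes 65.9% of MatC replicate 3 and 75.3% of ImC replicate 3, which rest on 44 and 154 reads.

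Of the VEGF receptors, Kdr encodes VEGFR2, the main signalling receptor for VEGF-A in endothelium (chromosome 5, 75932827 to 75978458, minus strand). Kdr was at 7.04, 22.6 and 24.5 CPM in Bone, 19.6, 38.8 and 1.41 CPM in MatC, and 0.250, 0 and 0.356 CPM in ImC. All MatC libraries were above all ImC libraries. The rise in MatC against ImC was 6.71 ± 1.26 (SE) on the log2 scale (edgeR adjusted p = 0.0146), a call lost without ImC replicate 1 (0.055).

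Flt1 encodes VEGFR1, which binds VEGF-A tightly and signals weakly, and also occurs on monocytes (chromosome 5, 147561604 to 147726011, minus strand). Flt1 was at 6.60, 15.5 and 21.3 CPM in Bone, 12.1, 44.7 and 0.566 CPM in MatC, and 0.250, 0.943 and 0.0712 CPM in ImC. ImC replicate 2, with 19 reads, was above MatC replicate 3, with 2 reads. Flt1 had a log2 fold change of 5.40 ± 1.27 (SE) in MatC against ImC (edgeR adjusted p = 0.0322). That call was lost without any 1 of 7 libraries, all but MatC replicate 3 and ImC replicate 2, with adjusted p-values up to 0.104. Flt1 took 45.2% of the endothelial reads of ImC replicate 2, a library in which Kdr had none. Reads of Kdr per read of Flt1 numbered 1.62 in MatC replicate 1 (1.33 to 1.99). In MatC replicate 2 there were 0.868 (0.772 to 0.974), so this ratio differed between those libraries beyond counting error. Per kilobase of exon, Kdr was above Flt1 in both. The levels were 2.17 and 0.892 CPM per kilobase in MatC replicate 1, and 4.29 and 3.31 in MatC replicate 2.

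Tek encodes TIE2, the receptor of the angiopoietins (chromosome 4, 94739289 to 94874976, plus strand). Tek was at 2.44, 4.97 and 7.77 CPM in Bone, 14.1, 12.5 and 0.566 CPM in MatC, and 0, 0.0496 and 0 CPM in ImC, where all 3 libraries held 1 read together. Its log2 fold change in MatC against ImC, 8.27 ± 1.34 (SE), had the smallest adjusted p of the 10 genes (edgeR, 0.0083), and it was the 1 member called in each of the 18 settings in which it was tested, with a highest adjusted p of 0.0371. The ratio of pooled reads was 547, with a counting interval of 97.5 to 21657.

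Tie1 encodes the partner of TIE2, a receptor with no well-known ligand of its own (chromosome 4, 118471191 to 118490061, minus strand). Tie1 was at 2.65, 6.08 and 7.71 CPM in Bone, 1.74, 11.7 and 0 CPM in MatC, and 0.167, 0.149 and 0.712 CPM in ImC. A count of 0 in MatC replicate 3 allows up to 0.849 CPM, which is above every ImC library. The log2 fold change of 3.75 ± 1.25 (SE) in MatC against ImC did not pass (edgeR adjusted p = 0.0976). It passed without MatC replicate 3, by DESeq2 and with no filter.

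Sox7, Sox17 and Sox18 form the SOXF group of transcription factors, which act in the specification of endothelium and its arterial and lymphatic forms. Sox18 (chromosome 2, 181669836 to 181671640, minus strand) was at 9.85, 17.6 and 21.3 CPM in Bone, 6.67, 17.8 and 0.566 CPM in MatC, and 0.417, 0.199 and 0.0712 CPM in ImC. Sox18 had a log2 fold change of 5.22 ± 1.03 (SE) in MatC against ImC (edgeR adjusted p = 0.0172). Sox18 was not called without ImC replicate 1 or without ImC replicate 2 (adjusted p up to 0.0525). Sox7 (chromosome 14, 63943673 to 63950732, plus strand) was at 2.27, 6.51 and 6.87 CPM in Bone, 2.05, 11 and 0.283 CPM in MatC, and 0, 0.0496 and 0.285 CPM in ImC. For Sox7, MatC replicate 3, with 1 read, fell just below ImC replicate 3, with 4 reads. Sox7 had a log2 fold change of 5.28 ± 1.30 (SE) in MatC against ImC (edgeR adjusted p = 0.0383). Sox7 was not called without any 1 of 7 libraries, all but MatC replicate 3 and ImC replicate 3 (adjusted p up to 0.112).

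Sox17, a factor of arterial endothelium (chromosome 1, 4490931 to 4497354, minus strand), was the lowest of the 10 genes. Sox17 had 15, 26 and 31 reads in Bone, 13, 46 and 0 in MatC, and 0 in all 3 ImC libraries. Over the pooled reads of each group, scaled for library size, Sox17 was at least 23.1-fold higher in Bone and at least 29.4-fold higher in MatC than the floor of 3 reads over the ImC libraries; pooling gives each library its weight in reads, and the mean level was 1.59 CPM in Bone and 1.41 CPM in MatC. It was called in MatC against ImC (edgeR adjusted p = 0.0393), and not without any 1 of 8 libraries, all but MatC replicate 3 (adjusted p up to 0.0932). Sox17 shares 804 exon bases with Gm37587, a transcript on the other strand that has no entry in the count table, and without strand information in the libraries the reads of the pair cannot be told apart.

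**Figure D3:**
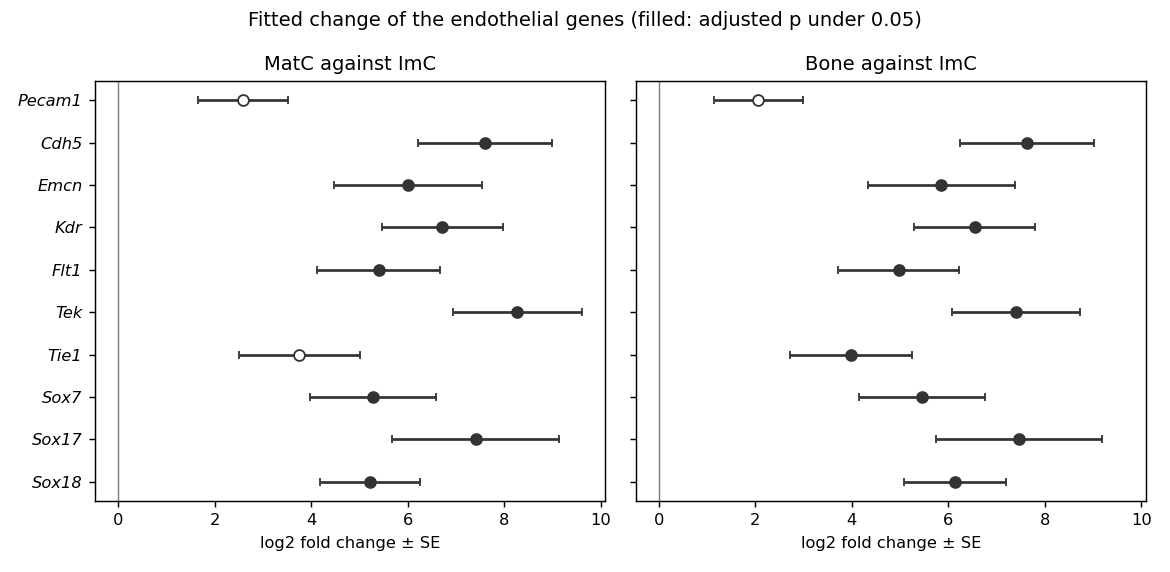
Log2 fold change of each of the 10 endothelial genes in MatC against ImC (left) and Bone against ImC (right). Bars give the standard error, and filled points mark an adjusted p under 0.05 (edgeR). The fitted point of Sox17 against ImC depends on the prior count because ImC had no read. All points lie above 0, with 8 of 10 filled on the left and 9 of 10 on the right.

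Within MatC the 3 libraries gave nearly the same order for each gene. The order replicate 2, then 1, then 3 from high to low held for 9 of 10 genes, where it held for 21.5% of all tested genes, and Tek was the exception. Replicate 3 was the lowest MatC library for 10 of 10, against 44% of all tested genes. It was at least 8-fold below both other libraries for 8 of 10, against 9.87%, and Pecam1 and Sox7 were the others. Tie1 and Sox17 counted with 0 reads in replicate 3, where the floor of 3 reads puts replicate 1 at least 2.05-fold and 1.16-fold higher. Replicate 2 was above replicate 1 for 9 of 10, against 53.8%.

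The size of the gap between MatC replicates 2 and 1 varied by gene more than counting error allows. The median ratio of replicate 2 to replicate 1 was 2.61 over the 10 genes, against 1.06 over all tested genes. The ratio was 6.71 for Tie1 (exact 95% interval 4.33 to 10.9), 5.37 for Sox7 (3.56 to 8.41) and 3.71 for Flt1 (3.11 to 4.44). It was 3.29 for Sox17 (1.75 to 6.64), 2.66 for Sox18 (2.08 to 3.44) and 2.56 for Pecam1 (2.17 to 3.04). The ratio was 2.06 for Emcn (1.79 to 2.38), 1.98 for Kdr (1.71 to 2.31) and 1.90 for Cdh5 (1.60 to 2.26). Only Tek did not differ, at 0.890 (0.721 to 1.10). Tek and Tie1 therefore parted: there were 8.09 reads of Tek per read of Tie1 in MatC replicate 1 (5.23 to 13.1), against 1.07 in MatC replicate 2 (0.863 to 1.33) and 0.817 to 1.01 in Bone. Tek took 13.0% of the endothelial reads in MatC replicate 1, against 5.03% in MatC replicate 2 and 3.57% to 4.96% in Bone, so MatC replicate 1 stood apart from both. These intervals compare single libraries, not conditions.

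**Figure D4:**
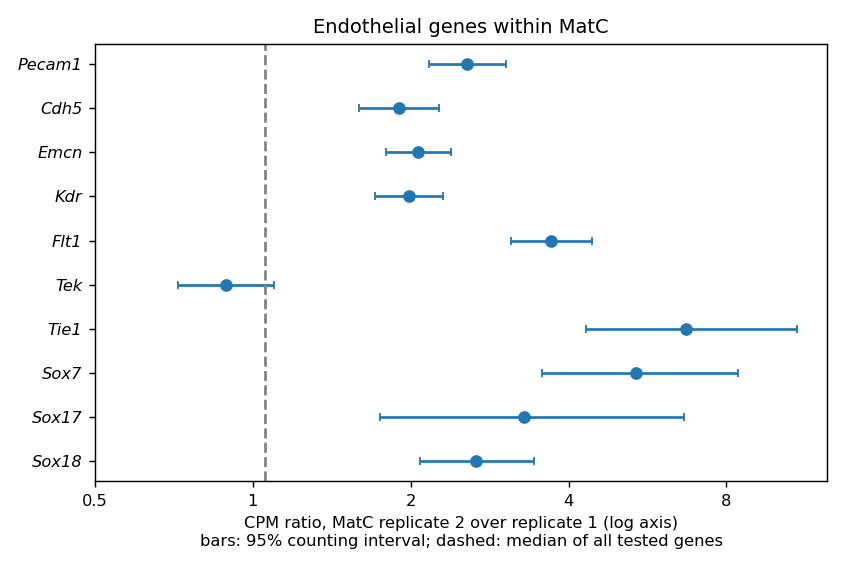
Ratio of the level in MatC replicate 2 to that in MatC replicate 1 for each endothelial gene, in CPM over CPM on a log axis, with exact 95% counting intervals and a dashed line at the median of all tested genes, 1.06. Tie1 and Sox7 lie highest, at 6.71 and 5.37, and Tek lies lowest, at 0.890.

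For MatC replicate 3, the median ratio to replicate 1 was 0.0435 over the 10 genes, against 0.878 over all tested genes. Of the 10 genes, 2 had more than 3 reads there (Pecam1 with 29 and Kdr with 5), 6 had 1 or 2 reads and 2 (Tie1 and Sox17) had none. Pecam1 fell least: it was 4.52 times higher in replicate 2 (3.11 to 6.82) and 1.76 times higher in replicate 1 (1.19 to 2.71) than in replicate 3. The summed level was 20.1 times higher in replicate 2 and 8.68 times higher in replicate 1 than in replicate 3. Per 1e6 of all reads, mitochondrially encoded ones included, those ratios were 37.4 and 34.0, and that of replicate 2 over replicate 1 was 1.10 in place of 2.31. The gap between replicates 2 and 1 thus depended on the scaling, and the low level of replicate 3 did not.

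Bone against MatC sets bone beside mature cartilage. None of the 10 genes was called in either direction by edgeR, where 6.05% of all tested genes were called (1.36% higher and 4.69% lower), and none had an unadjusted p under 0.05 or was called by DESeq2. The log2 fold changes ran from -0.87 ± 0.83 (SE) for Tek to 0.92 ± 0.80 for Sox18, with edgeR adjusted p-values of 0.54 to 0.991, and 5 of 10 were above 0. With standard errors of 0.80 to 1.15, differences of severalfold were not detectable here. The spread in MatC was wider than in Bone: MatC replicate 2 was above every Bone library for 9 genes (not Sox18), and MatC replicate 3 was below every Bone library for 9 (not Pecam1). Sox18 took 19.3%, 12.7% and 13.6% of the endothelial reads in Bone, against 6.17% and 7.12% in MatC replicates 1 and 2, a gap in the same direction in each of those libraries. Within Bone, replicate 1 was the lowest library for 10 of 10 genes and replicate 3 the highest for 8 of 10. The shares of all tested genes with these orders, within Bone or between MatC and Bone libraries, were not counted. These counts therefore have no baseline.

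Bone against ImC gave 9 of 10 genes higher in Bone (edgeR, adjusted p under 0.05), where 14.3% of all tested genes were called higher. In those 9 genes every Bone library was above every ImC library, as in 30.1% of all tested genes. Genes this low in ImC had enough reads to be tested only through the other groups, Bone among them. Neither count is free of that filter. The log2 fold change was 7.63 ± 1.39 (SE) for Cdh5 (edgeR adjusted p = 0.00368), 7.40 ± 1.33 for Tek (0.00346), 6.55 ± 1.25 for Kdr (0.00459) and 6.14 ± 1.06 for Sox18 (0.00285). Tie1, which had not passed in MatC against ImC, was called here at 3.98 ± 1.26 (SE; edgeR adjusted p = 0.0359), and Pecam1 was not, at 2.06 ± 0.92 (0.111). Emcn, called here at an edgeR adjusted p of 0.0166, was not without ImC replicate 1 (0.051). Both comparisons share the ImC libraries. The call of Tie1 was lost without any 1 of the 3 Bone libraries, ImC replicate 1 or ImC replicate 2, with adjusted p-values up to 0.0983.

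Levels of different genes can be set side by side only per length of exon. On the scale of CPM per kilobase, Sox18 was the highest in Bone, at 10.04 ± 3.60, followed by Emcn at 3.77 ± 1.79 and Cdh5 at 3.58 ± 2.09 (SD, n = 3). In MatC the same 3 genes led, at 5.14 ± 5.38, 4.11 ± 4.11 and 3.44 ± 3.27 CPM per kilobase. Sox17 was the lowest, at 0.334 ± 0.151 in Bone and 0.295 ± 0.348 in MatC. In ImC the highest was Pecam1, at 0.542 ± 0.681 CPM per kilobase. The ranges of mean ± SD of neighbours in these orders overlapped, apart from the steps from Sox18 to Emcn and from Flt1 to Sox17 in Bone. Amplified RNA can favour the 3′ end, which a short gene such as Sox18 would show in this scale, and that was not tested.

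The genes whose pattern over the 9 libraries was nearest to the mean of the 10 were sought among the 14247 other tested genes, by the root mean square difference of centred log2 CPM. The nearest was Ptprb, the endothelial phosphatase VE-PTP that acts on VE-cadherin and TIE2, at 0.383. Gpihbp1, which carries lipoprotein lipase across capillary endothelium, followed at 0.462, and Robo4, an endothelial guidance receptor, at 0.466. Lmo2 (0.546), Ctss (0.547), Dll4 (0.572), Tnfrsf11a (0.583), Gimap4 (0.584), Tfpi2 (0.589) and Pcdh12 (0.592) made up the 10, against a median of 2.44 over the 14247. Of these 10, 5 were in a list of 47 other endothelial genes, and Tnfrsf11a, the receptor RANK, is an osteoclast gene and was on the osteoclast list. The 10 endothelial genes themselves lay between 0.421 (Sox7) and 1.31 (Pecam1). Ptprb was at 2.71, 5.65 and 6.31 CPM in Bone, 3.64, 10.6 and 0.566 CPM in MatC, and 0.0833, 0.0496 and 0.285 CPM in ImC.

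Of the 47 other endothelial genes, 42 were tested, and 29 were higher in MatC than in ImC, with none lower (edgeR, adjusted p under 0.05), where 5.41% of all tested genes were higher and 2.29% lower. Their median log2 fold change was 4.37, against 0.03 over all tested genes. Cd34, a sialomucin of endothelium and of blood and stromal progenitors, was at 5.52, 15.3 and 16.4 CPM in Bone, 51.5, 33.5 and 2.55 CPM in MatC, and 0, 0.745 and 0 CPM in ImC. Its log2 fold change was 6.63 ± 1.31 (SE) in MatC against ImC (edgeR adjusted p = 0.0168; 0.0588 without ImC replicate 1). Cd34 was higher in MatC replicate 1 than in MatC replicate 2, and low in MatC replicate 3. Hhex, Lmo2, Mmrn2 and Flt4 were also called, with edgeR adjusted p-values of 0.014 to 0.0154; Mmrn2 was not without ImC replicate 1 (0.053). Nrp1, a co-receptor for VEGF that other cells carry too, was at 72.2, 107 and 85.7 CPM in MatC, against 25.1, 8.84 and 17.3 CPM in ImC (log2 fold change 2.37 ± 0.42, edgeR adjusted p = 0.0123). Unlike the 10 genes, Nrp1 was not low in MatC replicate 3. Over the tested genes of the list, replicate 3 was the lowest MatC library for 31 of 42 (44% of all tested genes), and at least 8-fold below both others for 14 (9.87%). In Bone against MatC none of the 42 was higher (1.36% of all tested genes) and 2 were lower (4.69%), which is near the share of all genes. In Bone against ImC 26 of 42 were higher (14.3%).

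The ligands of the VEGF receptors and of TIE2 come from many cell types. They were listed together with Angptl2, Angptl4, Apln, Pdgfb and Efnb2, which are not ligands of those receptors. Of 13 ligand genes listed, 12 were tested, and 2 were higher in MatC than in ImC (edgeR, adjusted p under 0.05; 5.41% of all tested genes). These were Angptl4, an angiopoietin-like regulator of lipoprotein lipase (log2 fold change 3.23 ± 0.74, adjusted p = 0.0292), and Pdgfb, an endothelial signal to pericytes with no read in ImC (adjusted p = 0.0388). Leaving out any 1 of 7 libraries, all but MatC replicate 3 and ImC replicate 3, ended the call of Angptl4 (adjusted p up to 0.0759), and any 1 of 8, all but MatC replicate 3, that of Pdgfb (up to 0.0915). Vegfa, the ligand of Kdr and Flt1, was at 24.5, 29.0 and 29.3 CPM in Bone, 30.1, 49.7 and 106 CPM in MatC, and 48.1, 106 and 72.6 CPM in ImC. Vegfa was thus highest in the MatC library in which its receptors were lowest. Its log2 fold change was -0.30 ± 0.44 (SE) in MatC against ImC (edgeR adjusted p = 0.72), and -1.45 ± 0.45 in Bone against ImC, where it was called (0.0335). That call was lost without any 1 of the 3 Bone libraries, ImC replicate 2 or ImC replicate 3 (adjusted p up to 0.110).

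Angpt1, the activating ligand of TIE2, was at 121, 126 and 119.8 CPM in Bone, 43.2, 23.2 and 7.92 CPM in MatC, and 5.08, 0.149 and 14.2 CPM in ImC. Angpt1 rose in Bone against ImC by a log2 fold change of 4.24 ± 1.08 (SE; edgeR adjusted p = 0.0153; 0.0539 without ImC replicate 1), and did not pass in MatC against ImC (1.96 ± 0.99, 0.256). Angpt2, which competes with it at TIE2, did not pass in any comparison. In Bone against ImC, Vegfb (-1.07 ± 0.33, edgeR adjusted p = 0.033) and Vegfd, listed as Figf in the count table (-3.33 ± 1.08, 0.0397), were lower. Both calls were lost without ImC replicate 1 or any 1 Bone library, that of Vegfb also without ImC replicate 2 and that of Vegfd without ImC replicate 3, with adjusted p-values up to 0.143 and 0.146. In that comparison 3 of 12 ligands were higher (14.3% of all tested genes) and 3 lower (16.8%). Angptl4 and Pdgfb were higher there, and no ligand passed in Bone against MatC. Vegfc, Pgf, Apln, Angptl2 and Efnb2 passed in none of the comparisons, and Angpt4, with at most 7 reads in a library, was not tested.

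Of 11 genes for inhibitors of vessel growth made by cartilage or secreted into matrix, 3 were higher in MatC than in ImC (edgeR, adjusted p under 0.05; 5.41% of all tested genes) and none was lower (2.29%). These were Tnmd, tenomodulin, with no read in ImC (adjusted p = 0.0138), Col18a1, the source of endostatin (log2 fold change 3.81 ± 0.73, adjusted p = 0.0152), and Thbs2, a thrombospondin (3.35 ± 0.81, 0.0353). Col18a1 was not called without ImC replicate 1 (0.0613), and Thbs2 not without any 1 of 7 libraries, all but MatC replicates 2 and 3 (up to 0.114). In Bone against MatC, 1 of 11 was higher (1.36% of all tested genes) and 3 were lower (4.69%). Cnmd, the cartilage inhibitor chondromodulin, listed as Lect1, averaged 0.429 ± 0.0738 CPM in Bone, 451 ± 343 CPM in MatC and 300 ± 218 CPM in ImC (SD, n = 3 each), with a log2 fold change of -10.03 ± 0.93 (SE) in Bone against MatC (edgeR adjusted p = 0.000357).

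The summed levels of several marker lists of other cells moved with the 10 genes, and the part of those cells in these results was not tested. In MatC replicates 1, 2 and 3 the summed level was 35.6, 123 and 26.3 CPM for macrophage and leukocyte genes, 151, 676 and 80.9 CPM for osteoclast genes, 1475, 4729 and 1152 CPM for erythroid and platelet genes, and 8349, 28188 and 1782 CPM for osteoblast genes. The sums of these lists follow the order 2, 1, 3 of the endothelial genes. Gene by gene, that order held for 10 of 14, 5 of 11, 7 of 12 and 6 of 12 tested genes (21.5% of all tested genes). Replicate 3 was the lowest MatC library for 13, 6, 7 and 8 of them (44%). The gaps of the sums between replicates 2 and 3 were smaller: 4.67-fold, 8.36-fold, 4.11-fold and 15.8-fold, against 20.1-fold for the 10 genes. A few genes, named after their values were seen, led the sums in replicate 3. Laptm5 was at 18.7 of the 26.3 CPM of the macrophage list. Itgb3, Mmp9 and Nfatc1 were at 32.2, 24.0 and 14.4 of the 80.9 CPM of the osteoclast list. The gaps therefore describe the sums and not each marker. The hypertrophic list, at 3616, 4715 and 13501 CPM, and the immature cartilage list, at 23613, 13213 and 30454 CPM, were highest in replicate 3. The list of pericytes and smooth muscle was at 426, 535 and 625 CPM, of which Cspg4, named after its values were seen, made up 344, 394 and 597 CPM. Cspg4 is also expressed by chondrocytes, and replicate 3 was the lowest MatC library for 5 of the 9 tested genes of that list. Skeletal muscle genes were at 37.9, 398 and 88.8 CPM. In MatC replicate 3, 5 of 15 macrophage genes, 2 of 12 osteoclast genes and 13 of 47 other endothelial genes had 0 reads. Fewer genes of any kind had a read there, 14940 against 17535 to 19584 in the other libraries. The share of all tested genes with 0 reads was not counted, so these counts have no baseline. Ptprc, the leukocyte marker CD45, had 51, 51 and 82 reads in Bone, 4, 63 and 0 in MatC, and 1, 7 and 1 in ImC.

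In MatC against ImC, genes called higher numbered 6 of 14 tested on the macrophage list, 5 of 11 on the osteoclast list, 2 of 12 on the erythroid and platelet list, 8 of 12 on the osteoblast list, 7 of 9 on the hypertrophic list, 1 of 9 on the pericyte list and 2 of 8 on the muscle list, where 5.41% of all tested genes were higher (edgeR, adjusted p under 0.05). None of the 14 immature cartilage genes was higher, and 2 were lower, against 2.29% of all tested genes. The summed level ranged from 62.9 to 152 CPM in Bone and 11.8 to 32.3 CPM in ImC for macrophage genes, and from 531 to 1161 CPM in Bone and 22.7 to 51.5 CPM in ImC for osteoclast genes. It ranged from 7962 to 11298 CPM in Bone and 14.0 to 1835 CPM in ImC for erythroid and platelet genes.

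**Figure D5:**
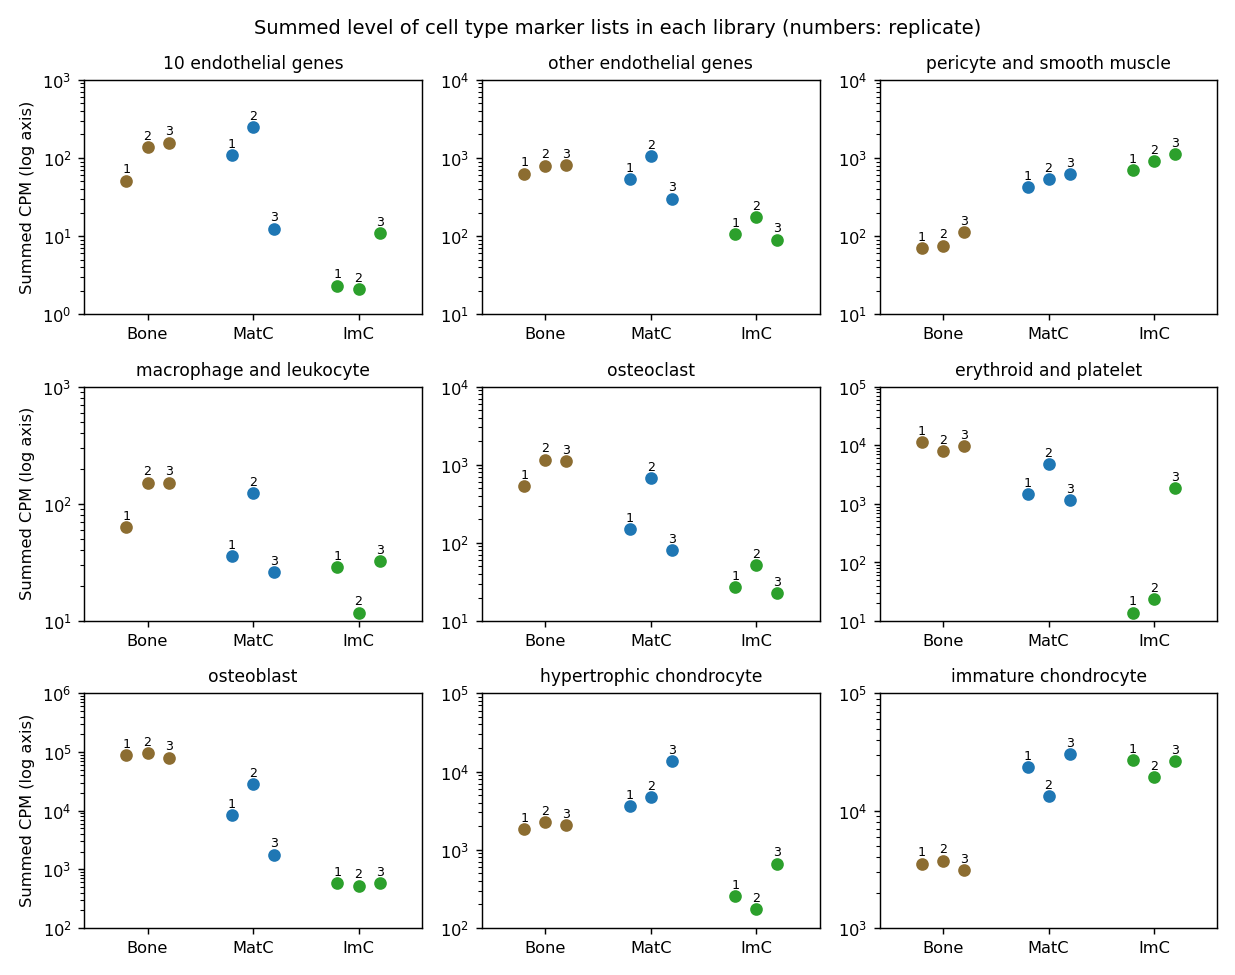
Summed level of the 10 endothelial genes and of the marker lists in each library, in CPM on a log axis, with Bone, MatC and ImC side by side and the replicate number as the point. MatC replicate 2 is the highest and replicate 3 the lowest MatC library for the endothelial, macrophage, osteoclast and osteoblast lists, and replicate 3 is the highest for the hypertrophic list, at 13501 CPM.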

How the data were processed

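RNA amplified for 1 round went into TruSeq libraries, per the labels' protocols; that kit keeps no strand information. The authors' deposited count table gives whole reads for 43472 gene symbols and has 0 entries without a gene. The submitters' processing notes name Trimmomatic 0.30, TopHat2, Bowtie2, HTSeq, edgeR and the mm10 build, with no settings. A second deposited table of 13302 genes holds the authors' normalized counts rounded to whole numbers, treated as a score and used only to read back its scaling factors, 0.692 to 3.67, for an alternative.

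Raw counts were tested by the quasi-likelihood test of edgeR 4.0.16 (R 4.3.3), in 1 fit of all 9 libraries with group means and TMM scaling. The filterByExpr function, at a minimum count of 10, kept 14257 genes, over which p-values were adjusted by Benjamini-Hochberg and called under 0.05. Standard errors (SE) are |log2 fold change| divided by sqrt(F). CPM are counts per 1e6 of TMM-scaled library size. Depth ranged from 7913684 to 23159547 reads. Intervals are 95% exact Poisson or binomial, Wilson for shares, and the floor for a count of 0 is 3 reads; all cover counting error only.

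Coordinates are those of GENCODE on GRCm38 (mm10), and promoters those of RefSeq GRCm38.p6. The members and the 11 other lists were chosen with earlier results of these data known. Named genes were the 10 members, the ligands, up to 6 called genes with the smallest p per other list, genes that check labels, and the 10 genes nearest in pattern; others are said to be chosen after their values were seen. Alternatives were other scalings, no filter, DESeq2 1.42.0, only the groups compared, the replicate number as a block, and leaving out each library.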

Additional observations from a re-analysis of the deposited data

How the results depend on the processing

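The count of endothelial genes higher in MatC than in ImC, 8 of 10, was 3 with library size alone as the scaling. It was 0 with only MatC and ImC in the fit, where 3 of the 10 were tested, and 5 with the replicate number as a block. It was 1 to 9 with single libraries left out, and 10 with no filter, by DESeq2, and without MatC 3 and ImC 3. Over all genes the count, 1099, was 358 with library size alone, 205 with only those groups and 725 with the block. It was 1690 with no filter, 2229 by DESeq2, 1908 without MatC 3 and ImC 3, and 355 to 1240 with single libraries left out. For Bone against MatC, 863 genes called became 297 with library size alone, 1504 with no filter, 1964 by DESeq2, 1605 without MatC 3 and ImC 3, and 167 to 1702 with single libraries left out; the endothelial genes called higher stayed at 0. For Bone against ImC, 4432 became 2073 with library size alone and 2343 to 5408 with single libraries left out, with 7 to 10 of the 10 endothelial genes called. Library size alone put the median log2 fold change of all tested genes at -0.51 in MatC against ImC, 0.95 in Bone against MatC and 0.46 in Bone against ImC. With it, 53.4% of calls were higher in MatC against ImC, in place of 70.2%. The share was 40.1% in place of 22.5% for Bone against MatC, and 59.0% in place of 46.0% for Bone against ImC. Without MatC 3 and ImC 3 the share for Bone against MatC was 35.1%.

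The small changes in Bone against MatC turned. With library size alone the log2 fold change was 0.52 for Pecam1, 0.71 for Kdr, 0.59 for Flt1 and 0.72 for Emcn, with the block it was 0.34 for Flt1, and without MatC 3 and ImC 3 it was -0.49 for Cdh5, -0.27 for Tie1, -0.30 for Sox7 and -0.40 for Sox17. With single libraries left out it ran from -0.84 to 0.30 for Pecam1, -0.66 to 0.74 for Kdr, -0.94 to 1.12 for Flt1, -0.68 to 0.84 for Emcn, -0.48 to 0.91 for Cdh5, -0.26 to 2.40 for Tie1, -0.29 to 2.0 for Sox7 and -0.38 to 1.40 for Sox17. In MatC against ImC, leaving out single libraries gave -0.90 to 0.032 for Vegfa, -2.55 to 0.050 for Angptl2 and -1.36 to 0.12 for Efnb2, and Vegfd (Figf) was 0.24 without MatC 3 and ImC 3. In Bone against ImC, single libraries left out gave -1.25 to 0.41 for Angptl2 and -1.23 to 0.44 for Pgf, and Pgf was 0.46 without MatC 3 and ImC 3. The cause of these changes was not tested. Fewer libraries or groups in the fit also leave fewer degrees of freedom for the calls.

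Per 1e6 of all reads, the summed level of MatC 2 was 1.10 times that of MatC 1 and 37.4 times that of MatC 3, and that of MatC 1 was 34.0 times that of MatC 3. Deviations of same-numbered libraries from their group means correlated at r of -0.131 to 0.240 over 9 pairs. With 3 libraries per group, these values cannot decide whether the numbers pair the libraries. Depth limits MatC 3, where 1 read is worth 0.283 CPM. The setting without MatC 3 and ImC 3 was chosen after seeing the data.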
